A study of Mus musculus with 8 samples.

Results

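The 10 genes described here encode proteins that store, release and recover calcium at the sarcoplasmic reticulum (SR) of muscle cells. They were taken by name from a table of 14608 genes, and all 10 had 1 row each: Ryr2, Casq2, Casq1, Trdn, Asph, Hrc, Jph2, Atp2a2, Pln and Slc8a1. Poly-A RNA was sequenced from the outflow tract (OFT), the segment that joins the embryonic ventricles to the arteries and holds muscle, endocardium and cushion mesenchyme, of mouse embryos at embryonic day 11.5 (E11.5). In the 4 control-labelled libraries the genotype is given only as Control. The 4 mutant-labelled libraries are from embryos labelled Mib1V943F/+ Gata6STOP/+, which carry 1 copy of a missense allele of Mib1, a ubiquitin ligase that activates NOTCH ligands, and, on the opposite chromosome, 1 copy of a null allele of Gata6, a transcription factor of heart development. No tissue-restricted driver is named for either allele, and the sex and genetic background of the embryos are not given in the sources used here. The sources differ on how embryos were pooled, with 3 individuals per sample in the series description and another scheme in the methods, so the number of embryos behind a library is not known and p-values measure the spread between these libraries.

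The libraries held between 10669420 reads on listed genes, in control replicate 2, and 30469165 reads, in mutant replicate 3, and the 10 genes had from 463 reads (Casq2) to 43383 reads (Atp2a2) in a library. Values are given in CPM, read counts scaled by the authors to a common library size and composition, and lists of 4 values follow the order of replicates 1 to 4. Gata6 was at 236.5, 279.3, 270.9 and 260.7 CPM in the controls and at 213.2, 284.1, 276.5 and 223.6 CPM in the mutant libraries. The groups overlapped in Gata6, and the highest single value was in mutant replicate 2, so the RNA level of Gata6 here does not separate the labels. Each direction below rests on the labels. The value sums both copies of the gene, so RNA of the null allele is counted where it persists, and its share was not measured here. Mib1, whose allele is a missense change that RNA level does not check, was at 121.8 ± 15.6 CPM in control-labelled and 127.5 ± 6.62 CPM in mutant-labelled libraries (SD, n = 4 each).

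In a working cardiomyocyte, calcium that enters from outside opens the ryanodine receptor in the SR membrane, calcium leaves the SR store, and the sarcomeres contract. The pump SERCA2 then returns calcium to the store under the control of phospholamban, and the sodium-calcium exchanger sends the rest out of the cell. Inside the SR, calsequestrin binds calcium in bulk and is held near the ryanodine receptor by triadin and junctin, while junctophilin ties the SR membrane to the cell surface. The embryonic heart beats before this system is mature, and the myocardium of the OFT is known for slow conduction and slow contraction.

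Among the 10 genes, 9 had a lower mean log2 value in mutant-labelled than in control-labelled libraries, against 49.6% of all genes. The exception was Casq2, and Asph was lower by only 0.02 on the log2 scale. The median log2 fold change of the 10 genes was -0.29, while the median over all genes was 0.001. The widest differences were in Hrc, at 70.1% of the control mean, and in Jph2 and Ryr2, both at 77.2%. None of the 10 passed an adjusted p of 0.05 in limma, and neither did any other gene of the table (0% of 14608, with 12.1% at an unadjusted p under 0.05 in either direction). At an unadjusted p under 0.05, 7 of the 10 were lower (Ryr2, Casq1, Trdn, Hrc, Jph2, Atp2a2 and Pln), against 6.62% of all genes, and 0 were higher, against 5.45% of all genes. In 2 of the 10, Hrc and Jph2, every mutant-labelled value lay under every control-labelled value, against 3.9% of all genes in that direction and 7.1% in either. Leaving out control replicate 1 lowered the count of 7 to 3, and leaving out mutant replicate 3 lowered it to 4. The count of 2 was 4 when control replicate 2 was left out and 5 when mutant replicate 4 was left out. For these counts with a library left out, the shares of all genes were not counted, and groups of fewer libraries are easier to separate.

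Count tests on the reads recovered from the CPM values gave no call among the 10 genes at an adjusted p of 0.05 with all libraries. Over all genes, edgeR's quasi-likelihood test called 0%, edgeR's likelihood ratio test called 0.732% (0.554% lower in mutant-labelled libraries) and DESeq2 called 1.54% of the genes to which it gave an adjusted p. The nearest were Jph2 and Hrc, with adjusted p of 0.102 and 0.120 in the likelihood ratio test and 0.0520 and 0.0696 in DESeq2. The likelihood ratio test was also run with each of the 8 libraries left out, a choice made after seeing the data. The most calls among the 10 genes came without mutant replicate 2. They were Hrc (adjusted p = 0.0389) and Pln (adjusted p = 0.0401), beside 0.609% of all genes. On the same libraries, limma gave adjusted p of 0.295 for Hrc and 0.303 for Pln. With a trend on GC content removed, 8 of the 10 genes were lower at an unadjusted p under 0.05, against 6.56% of all genes, and again 0% of all genes passed an adjusted p in limma.

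**Figure D1:**
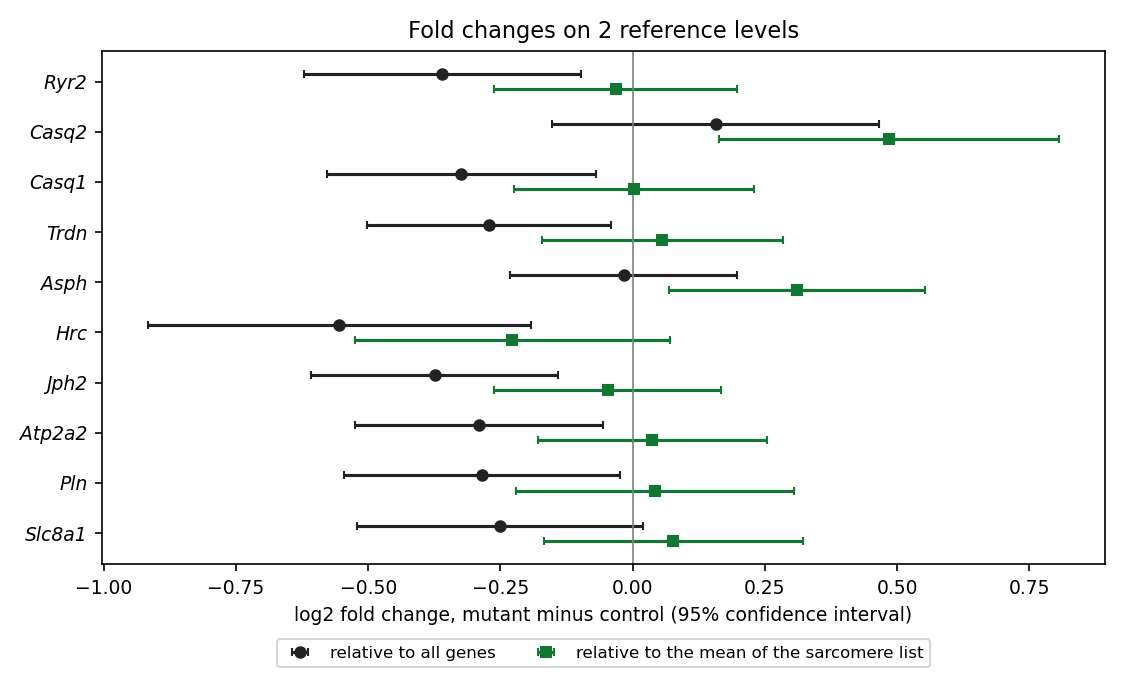
Log2 fold change of each gene, mutant-labelled minus control-labelled, with its 95% confidence interval from limma (x axis) for the 10 genes (y axis), relative to all genes (circles) and relative to the mean of 25 sarcomere genes in the same library (squares). Relative to all genes, 9 of the 10 points lie left of 0 and the interval leaves out 0 in 7, while relative to the sarcomere genes Casq1, Trdn, Asph, Atp2a2, Pln and Slc8a1 change sign and the median is 0.04.

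Promoter windows from RefSeq (GRCm38.p6), from 250 bases before to 50 bases after an annotated start, were found for 7 of the 10 genes, with 8 windows in all. Jph2 alone had more than 1 window (chr2:163397944-163398243 and chr2:163397924-163398223). Its windows overlap for most of their length but are counted separately below. Atp2a2, Trdn and Asph had no entry. The letters GATAA, a form of the site bound by GATA factors, were searched on either strand. They were present in 4 of the 8 windows (Casq1, Hrc, Pln and Slc8a1), and 25.4% of all 32851 windows of this length hold them. Other forms of the site were not searched, so a window without GATAA may still hold one. The E-box CANNTG was in 8 of 8 windows, against 72.3% of all windows, and TNAAGTG, the core of an NKX2-5 site, was in 0 of 8, against 11.5%. The MEF2 site was in 1 of 8 windows (Casq2), against 3.19%, and the CArG box of serum response factor was in 0 of 8, against 1.63%. A match of letters is a description of the window and no evidence of binding. The windows of 4 genes are shown because they belong to the pair whose groups did not overlap (Hrc and Jph2), to the inhibitor of the pump (Pln), which like Slc8a1 has a pair of GATAA matches and groups that overlapped, and to the single gene with a higher mean (Casq2). Capitals mark GATAA, or TTATC where it lies on the other strand, and in Casq2 the MEF2 match.
Hrc, chr7:45335019-45335318, plus strand: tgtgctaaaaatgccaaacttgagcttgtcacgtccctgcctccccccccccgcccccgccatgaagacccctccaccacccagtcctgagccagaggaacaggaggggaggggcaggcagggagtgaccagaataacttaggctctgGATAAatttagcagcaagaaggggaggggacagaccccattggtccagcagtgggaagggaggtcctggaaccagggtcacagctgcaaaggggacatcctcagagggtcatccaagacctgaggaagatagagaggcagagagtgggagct
Jph2, chr2:163397944-163398243, minus strand, no match to either: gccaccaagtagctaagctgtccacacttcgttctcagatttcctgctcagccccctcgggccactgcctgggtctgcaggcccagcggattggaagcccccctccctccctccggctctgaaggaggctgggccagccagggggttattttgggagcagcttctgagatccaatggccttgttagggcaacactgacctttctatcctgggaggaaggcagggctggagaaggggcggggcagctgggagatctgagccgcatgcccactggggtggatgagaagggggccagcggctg
Pln, chr10:53337436-53337735, plus strand: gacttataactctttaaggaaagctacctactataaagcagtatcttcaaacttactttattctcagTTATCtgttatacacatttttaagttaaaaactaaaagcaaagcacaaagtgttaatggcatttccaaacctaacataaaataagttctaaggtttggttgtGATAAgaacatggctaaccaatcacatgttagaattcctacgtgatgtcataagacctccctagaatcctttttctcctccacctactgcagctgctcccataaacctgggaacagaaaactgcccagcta
Casq2, chr3:102086165-102086464, plus strand: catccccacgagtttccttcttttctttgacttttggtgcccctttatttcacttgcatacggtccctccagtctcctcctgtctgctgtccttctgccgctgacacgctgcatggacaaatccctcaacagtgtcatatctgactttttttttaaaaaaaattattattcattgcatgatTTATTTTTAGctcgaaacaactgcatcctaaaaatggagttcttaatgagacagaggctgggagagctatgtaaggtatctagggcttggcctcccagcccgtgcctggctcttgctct
Of these windows, those of Hrc and Pln hold GATAA and those of Jph2 and Casq2 do not.

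Ryr2, the calcium release channel of the cardiac SR (chromosome 13, 11553102 to 12106945, minus strand, GRCm38), was at 309.9, 201.1, 227.1 and 231.1 CPM in the controls. In the mutant-labelled libraries it was at 172.8, 168.1, 195.8 and 211.8 CPM. Control replicate 1 stood above the other 7 libraries, mutant replicates 1 to 3 lay under all controls, and mutant replicate 4 lay above control replicate 2, so the groups overlapped. Its log2 fold change was -0.36 (SE 0.12, limma adjusted p = 0.313), with an exact two-sided permutation p of 0.0571, where 0.0286 is the smallest p that 4 against 4 libraries can give. Without control replicate 1 it was -0.24. In a bulk sample of a mixed tissue, fewer muscle cells and less of this RNA in each muscle cell cannot be told apart, and this holds for each of the 10 genes.

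The calsequestrins buffer calcium within the SR, and the heart form and the form best known from skeletal muscle differed in their values here. Casq2, the heart form (chromosome 3, 102086415 to 102146514, plus strand), was at 43.5, 43.9, 52.0 and 48.6 CPM in the controls and at 39.7, 71.2, 53.5 and 49.5 CPM in the mutant libraries. Both the lowest and the highest value were mutant-labelled, in replicates 1 and 2, and all controls lay between them. For Casq2 this gave a log2 fold change of 0.16 (95% confidence interval -0.15 to 0.47, limma adjusted p = 0.651), and it was 0.01 without mutant replicate 2. Casq1, the skeletal form (chromosome 1, 172209894 to 172219868, minus strand), was at 231.1, 192.1, 179.8 and 176.2 CPM in controls and at 176.1, 143.2, 127.2 and 178.0 CPM in mutant-labelled libraries. Mutant replicates 1 to 3 lay under all controls (replicate 1 only just), and mutant replicate 4 lay above control replicate 4. The log2 fold change of Casq1 was -0.32 (SE 0.12, limma adjusted p = 0.334, exact permutation p = 0.0571).

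Triadin and junctin are SR membrane proteins that link calsequestrin to the ryanodine receptor. Trdn, which encodes triadin (chromosome 10, 33080554 to 33476709, plus strand), was at 75.0, 53.4, 62.1 and 64.5 CPM in the controls. It was at 48.9, 53.8, 47.3 and 60.3 CPM in the mutant libraries, so that mutant replicates 1 and 3 lay under all controls while replicates 2 and 4 lay above control replicate 2. Trdn had a log2 fold change of -0.27 (SE 0.11, limma adjusted p = 0.370, exact permutation p = 0.0857). Asph, whose transcripts encode junctin and also the enzyme aspartate beta-hydroxylase (chromosome 4, 9448069 to 9669344, minus strand), was at 172.8, 138.8, 164.1 and 166.2 CPM in controls and at 139.5, 190.3, 153.1 and 153.5 CPM in mutant-labelled libraries. The lowest value was in control replicate 2 and the highest in mutant replicate 2, and the groups overlapped throughout. The fold change of Asph on the log2 scale was -0.02 (95% confidence interval -0.23 to 0.20), and 0.005 with every library scaled to the same sum. The table gives 1 value per gene, so the junctin and hydroxylase transcripts of Asph are summed.

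Hrc, which encodes the histidine-rich calcium-binding protein of the SR lumen, a partner of both triadin and SERCA2, had the widest relative difference. The gene (chromosome 7, 45335290 to 45338974, plus strand) was at 121.9, 107.9, 112.2 and 108.7 CPM in the controls and at 87.7, 49.5, 78.5 and 100.2 CPM in the mutant libraries. The controls lay close together, the mutant-labelled values spread more widely with replicate 2 far under the rest, and the groups did not overlap. The means were 112.7 ± 6.40 CPM and 79.0 ± 21.6 CPM (SD, n = 4 each). Hrc had a log2 fold change of -0.55 (SE 0.17, unadjusted p = 0.00591, limma adjusted p = 0.270), with an exact permutation p of 0.0286, the smallest possible, and it was -0.35 without mutant replicate 2.

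Junctophilin 2, encoded by Jph2 (chromosome 2, 163336242 to 163397993, minus strand), holds the SR against the surface membrane so that calcium channels face ryanodine receptors. It was at 284.1, 343.9, 287.2 and 259.0 CPM in the controls and at 221.6, 185.8, 252.1 and 247.5 CPM in the mutant libraries. The highest mutant-labelled value, in replicate 3, lay just under the lowest control, in replicate 4, and the groups did not overlap. The means were 293.5 ± 35.9 CPM and 226.7 ± 30.4 CPM (SD, n = 4 each). Jph2 had a log2 fold change of -0.37 (SE 0.11, unadjusted p = 0.00443, limma adjusted p = 0.259, exact permutation p = 0.0286) and ranged from -0.43 to -0.28 when single libraries were left out.

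Calcium uptake rests on the pump SERCA2 and on its inhibitor phospholamban. Atp2a2, which encodes SERCA2 (chromosome 5, 122453513 to 122502225, minus strand), was at 1563, 1243, 1166 and 1261 CPM in the controls and at 1089, 903.3, 1082 and 1198 CPM in the mutant libraries. Control replicate 1 was the highest and mutant replicate 2 the lowest, and only mutant replicate 4 reached into the control range. Atp2a2 had a log2 fold change of -0.29 (SE 0.11, limma adjusted p = 0.350, exact permutation p = 0.0571). Pln, which encodes phospholamban (chromosome 10, 53337667 to 53345987, plus strand), was at 560.1, 413.1, 549.0 and 475.2 CPM in controls and at 360.4, 508.7, 374.4 and 399.1 CPM in mutant-labelled libraries. Here mutant replicates 1, 3 and 4 lay under all controls, while mutant replicate 2, the lowest library for Atp2a2, lay above control replicates 2 and 4. The log2 fold change of Pln was -0.28 (SE 0.12, limma adjusted p = 0.396, exact permutation p = 0.114) and it was -0.39 without mutant replicate 2.

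Slc8a1 encodes NCX1, the sodium-calcium exchanger of the cell surface, which is among the earliest calcium transporters needed by the embryonic heart. The gene (chromosome 17, 81373105 to 81738377, minus strand) was at 1298, 919.8, 880.2 and 1027 CPM in the controls and at 907.1, 728.8, 834.2 and 976.9 CPM in the mutant libraries. Control replicate 1 was again the highest and mutant replicate 2 the lowest, with mutant replicates 1 and 4 inside the control range. The log2 fold change was -0.25 (95% confidence interval -0.52 to 0.02, limma adjusted p = 0.439, exact permutation p = 0.171), and without control replicate 1 it was -0.13.

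**Figure D2:**
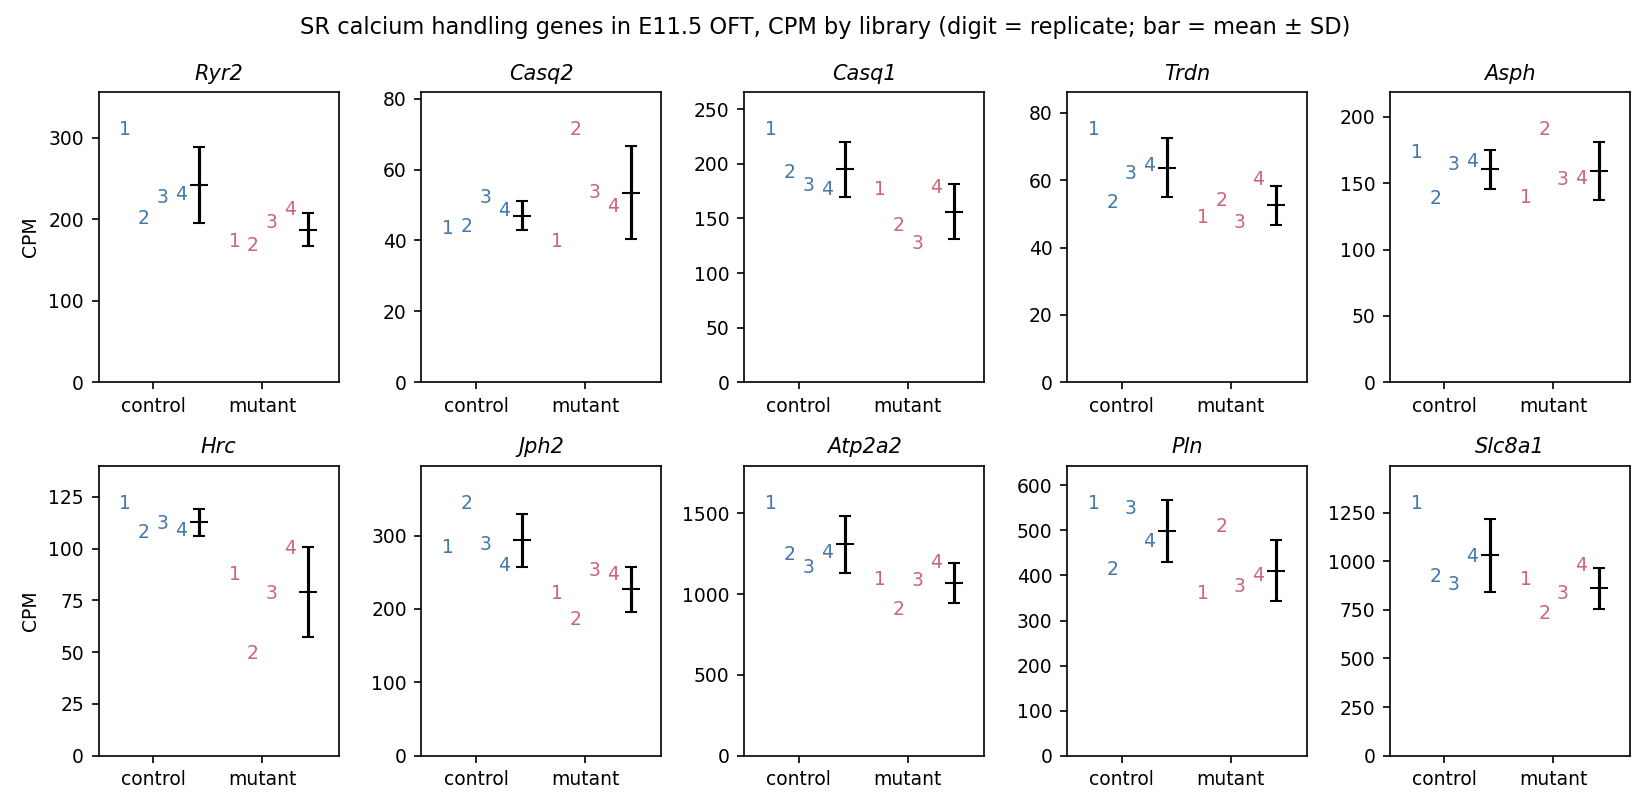
CPM (y axes, each from 0) of the 10 genes in each library, by group (x axis), with digits for the replicate number and bars for the mean and SD of 4 libraries. The digits of the groups do not overlap in Hrc and Jph2, control replicate 1 is the highest control in 8 of the 10 panels, and mutant replicate 2 is the highest of 8 libraries in Casq2 and Asph.

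Per kilobase of exon, which puts genes of different length on 1 scale, the levels of the 10 genes spanned from 6.82 CPM per kb (Trdn) to 215 CPM per kb (Atp2a2) in control-labelled means. The pump and its inhibitor led, with Pln at 181 CPM per kb, followed by Casq1 at 99.9, Jph2 at 69.0, Slc8a1 at 54.8, Hrc at 43.9, Casq2 at 17.2, Asph at 9.97 and Ryr2 at 8.42 CPM per kb. The order was the same in mutant-labelled means, from 176 CPM per kb (Atp2a2) to 5.62 CPM per kb (Trdn). In controls the ranges of neighbours overlapped between Atp2a2 and Pln, Jph2 and Slc8a1, Slc8a1 and Hrc, Asph and Ryr2, and Ryr2 and Trdn. The ranges alone do not order these neighbours, which were not compared within each library. Casq1 stood above Casq2 in every library on this scale, with a lowest value of 65.2 CPM per kb against a highest of 26.0 CPM per kb. Exon length is the union of all annotated exons, so a gene with long exons that these cells do not use, such as Ryr2 with its union of 28790 bases, may be read as lower than its transcripts are.

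**Figure D3:**
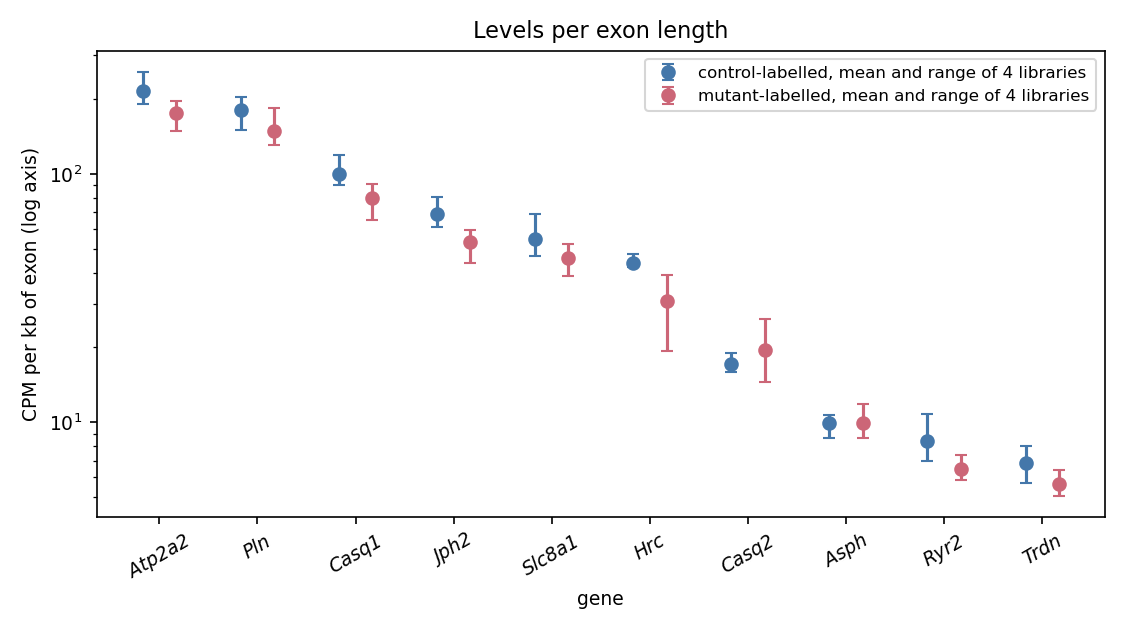
CPM per kb of exon (y axis, log scale) of the 10 genes (x axis, in the order of the control mean), with the mean and the range of 4 control-labelled and 4 mutant-labelled libraries. Atp2a2 and Pln lie highest and Trdn lowest in both groups.

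The libraries did not move all 10 genes together. As log2 deviation from each gene's mean over the 8 libraries, the mean of the 10 genes was 0.30, 0.02, 0.10 and 0.09 in the controls and -0.18, -0.18, -0.16 and 0.00 in the mutant-labelled libraries. Control replicate 1 was the highest, and mutant replicate 4 lay close to control replicate 2, the lowest control. Mutant replicates 1 and 3 were both under every control value in 7 of the 10 genes, the exceptions being Casq2, Asph and Slc8a1. The share of all genes with this pattern was not counted. A pattern asked of only part of the mutant-labelled libraries is easier to meet than one asked of all. Mutant replicate 2 was the lowest of all 8 libraries in 5 genes (Ryr2, Hrc, Jph2, Atp2a2 and Slc8a1) and the highest of all 8 in Casq2 and Asph. Its deviation was -0.90 in Hrc and 0.52 in Casq2.

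**Figure D4:**
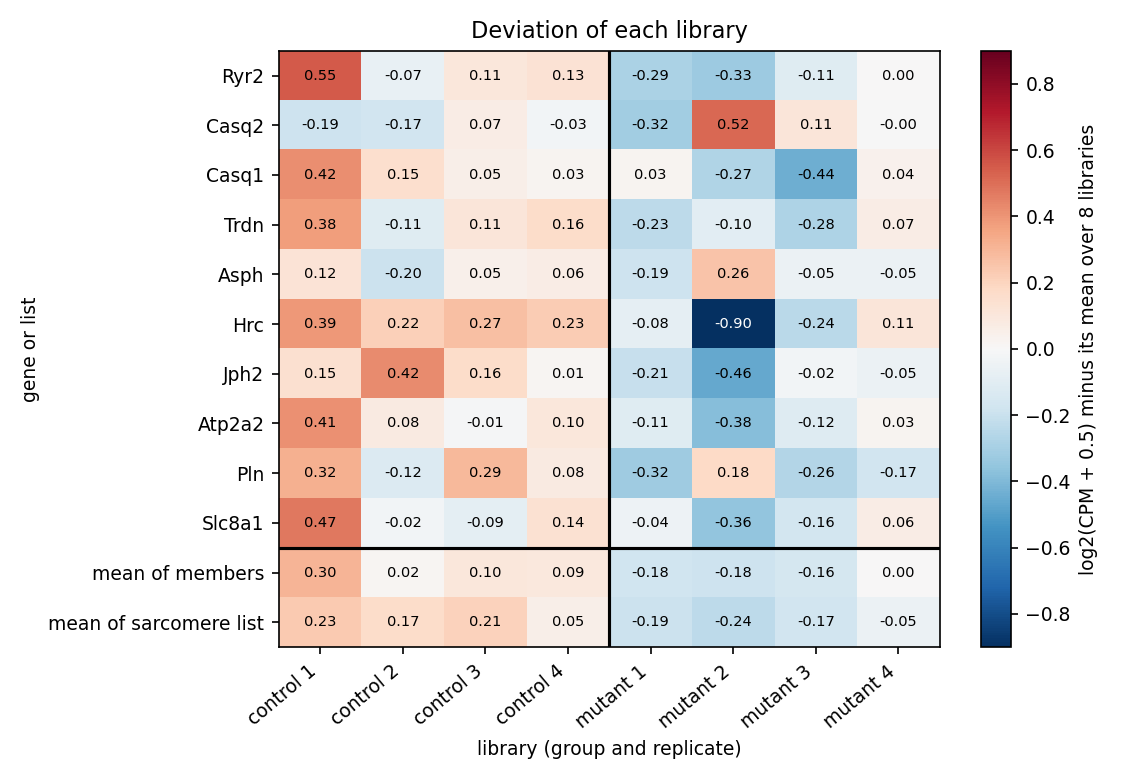
Deviation of log2(CPM + 0.5) from the mean over 8 libraries (colour and printed value) for the 10 genes, their mean and the mean of 25 sarcomere genes (rows) in each library (columns). Most cells are red in control replicate 1 (0.30 for the mean) and blue in mutant replicates 1 to 3 (-0.18, -0.18 and -0.16), while mutant replicate 2 runs from -0.90 in Hrc to 0.52 in Casq2.

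Ratios within a library set members of the system against each other. Whether both genes of a pair are expressed in the same cells was not tested. The ratio of Pln to Atp2a2, the inhibitor to its pump, was 0.358, 0.332, 0.471 and 0.377 in the controls and 0.331, 0.563, 0.346 and 0.333 in the mutant-labelled libraries. Mutant replicate 2 stood above all other libraries and the other mutant-labelled values lay close together near the lower controls. The log2 difference between group means was 0.01 (exact permutation p = 0.971). The ratio of Slc8a1 to Atp2a2, export against uptake, lay between 0.740 and 0.831 in controls and between 0.771 and 0.833 in mutant-labelled libraries (log2 difference 0.04, exact permutation p = 0.371, 0.495 adjusted over 4 ratios). It was the narrowest of the 4 ratios, with an SD of 0.08 and 0.05 on the log2 scale. The ratio of Casq2 to Casq1 lay between 0.188 and 0.289 in controls and between 0.225 and 0.497 in mutant-labelled libraries (log2 difference 0.48, exact permutation p = 0.229, adjusted p = 0.457).

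The ratio of Casq2 to Ryr2, the luminal buffer against the release channel, was 0.140, 0.218, 0.229 and 0.210 in the controls. In the mutant-labelled libraries it was 0.230, 0.424, 0.274 and 0.234, and all 4 were above all controls, although mutant replicate 1 lay only just above control replicate 3. The log2 difference was 0.52 (exact permutation p = 0.0286, the smallest possible, and 0.114 adjusted over 4 ratios), and it was 0.32 to 0.61 when single libraries were left out.

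**Figure D5:**
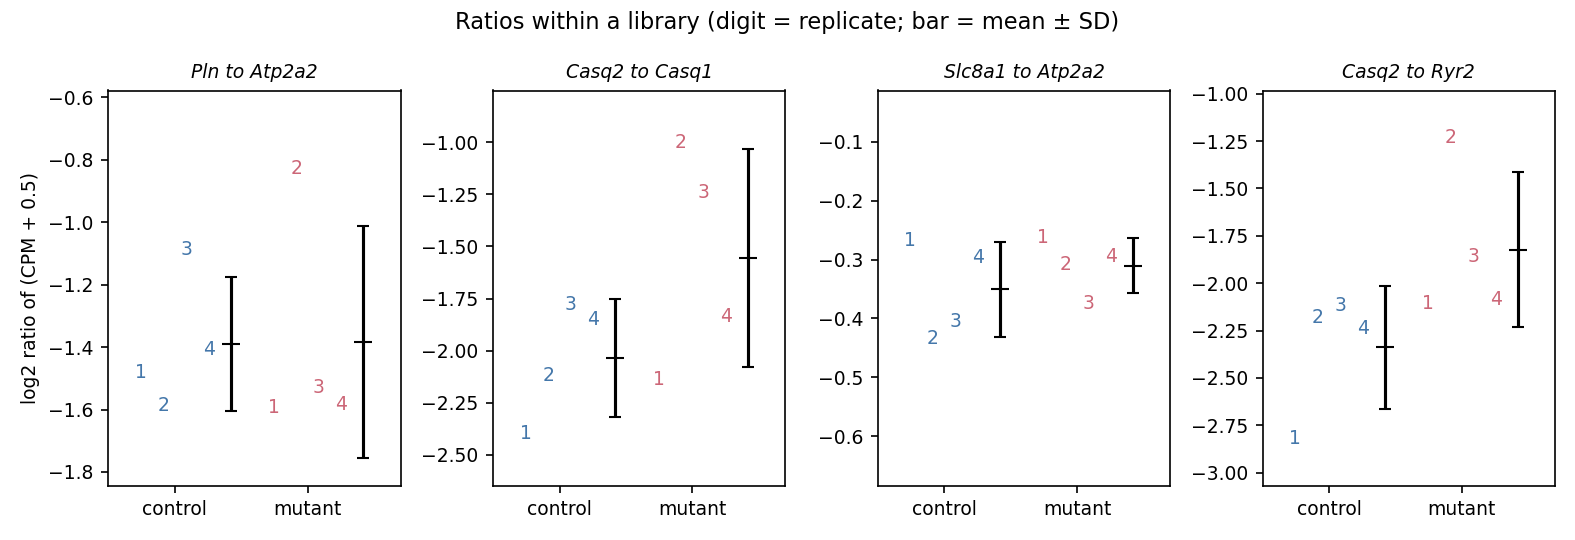
Log2 ratio of (CPM + 0.5) between gene pairs within each library (y axes, each with its own range), by group (x axis), with digits for the replicate number and bars for the mean and SD of 4 libraries. The groups are apart only in Casq2 to Ryr2, and mutant replicate 2 stands above the other mutant-labelled libraries in Pln to Atp2a2 at -0.83.

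The sarcomere genes, which mark cardiomyocytes, were lower in mutant-labelled libraries as well. All 25 of a list of sarcomere genes had a lower mean (median log2 fold change -0.33). At an unadjusted p under 0.05, 20 of 25 were lower, against 6.62% of all genes, and 0 passed an adjusted p in limma. In edgeR's likelihood ratio test 13 of the 25 were lower at an adjusted p of 0.05, where 0 of the 10 SR genes and 0.554% of all genes were. Their summed level was 35192 to 40901 CPM in control-labelled and 28520 to 32975 CPM in mutant-labelled libraries. The motor and thin filament genes Myh6 (log2 fold change -0.45), Myh7 (-0.39), Tnnt2 (-0.35) and Actc1 (-0.33) and the giant spring protein gene Ttn (-0.25) had differences of the size seen in the SR genes, and the atrial light chain gene Myl7 had a smaller one (-0.12). Taken relative to the mean of this list in each library, a scale on which the median of all genes moves to 0.33, the median log2 fold change of the 10 SR genes was 0.04 and 0 of the 10 were lower at an unadjusted p under 0.05. On that scale Hrc was at -0.23 (95% confidence interval -0.53 to 0.07), Jph2 at -0.05, Ryr2 at -0.03, Casq1 at 0.003, Atp2a2 and Pln at 0.04, Trdn at 0.06 and Slc8a1 at 0.08. Casq2 (0.48, limma adjusted p = 0.0159) and Asph (0.31, limma adjusted p = 0.0317) passed in the higher direction. Since 56.7% of all genes were called higher and 0.171% lower on that scale, these 2 calls are at the background of the scale. The part of muscle content in the differences of the SR genes was not tested.

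The other genes of calcium handling were set beside them from 8 lists, of which 75 of 83 genes had a row. In these, 48 had a lower and 27 a higher mean, with a median log2 fold change of -0.03. At an unadjusted p under 0.05, 11 were lower and 5 higher, and 0 passed an adjusted p in limma. Over all genes, 6.62% were lower and 5.45% higher at that unadjusted level, which is the background for each of the 8 lists. Of the surface calcium channels, 3 of 10 were lower and 1 was higher at an unadjusted p under 0.05. Cacna2d2, an auxiliary subunit of voltage-gated channels, went from 37.9 CPM to 26.1 CPM (log2 fold change -0.53, limma adjusted p = 0.206), and it was the only one of the 75 past an adjusted p in edgeR's likelihood ratio test (0.0123). In that test its adjusted p was 0.0699 without control replicate 1, 0.0566 without control replicate 4 and 0.00561 without control replicate 2. DESeq2 gave adjusted p of 0.00632 for Cacna2d2, 0.0270 for Cacna1c and 0.0353 for Speg. Cacna1c, the pore of the L-type channel that triggers Ryr2, was at 154 CPM and 122 CPM (log2 fold change -0.34), with groups that did not overlap. Cacna1h and Cacna1g, pores of T-type channels, had opposite signs, with log2 fold changes of -0.30 and 0.41. Relative to the sarcomere list, Cacna2d2 was at -0.20, Cacna1c at -0.01, Cacna1h at 0.03 and Cacna1g at 0.74. On that scale the median of all genes was 0.33. Among SR membrane, junction and lumen proteins 4 of 13 were lower at an unadjusted p under 0.05, among them Speg, a kinase of the junction (log2 fold change -0.37, 155 CPM to 120.0 CPM).

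Of 14 partners and relatives of the release channel, 0 were lower and 3 were higher at an unadjusted p under 0.05, among them Calm2 (log2 fold change 0.19) and the neuronal and smooth muscle channel Ryr3 (0.33). Of 18 genes of kinase and phosphatase control, 3 were lower and 1 was higher at that level, with Camk2a, a calcium-dependent kinase, at -0.43 (101.3 CPM to 75.8 CPM) and Pde3a, a cyclic nucleotide phosphodiesterase, at 0.24. Of 6 genes of mitochondrial uptake 1 was lower, Smdt1 (-0.26). In store-operated entry (6 genes) and in the exchangers and pumps of the surface other than Slc8a1 (6 genes), 0 were past that level. Of the other SR pumps and small inhibitors, 2 of 6 had a row, and sarcolipin (Sln), the inhibitor of atrial muscle, was between 1.66 and 3.03 CPM in controls and between 2.02 and 5.70 CPM in mutant-labelled libraries, far under Pln.

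The 5 genes whose profile over the 8 libraries was nearest to the mean profile of the 10 genes were Atp11a, Cap2, Dusp27, Mtss1 and Ppp1r12b, by the root mean square difference of centred log2 values (0.0308 to 0.0506). Their log2 fold changes ran from -0.25 to -0.24, which the choice by likeness to the mean profile fixed in advance. The 10 genes themselves were not picked for this likeness. Among them, Trdn (0.0839) and Atp2a2 (0.0957) were nearest to their common mean and Hrc (0.282) and Casq2 (0.331) were farthest.

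Some reads of 5 of the genes may belong to neighbours on the opposite strand, since the libraries were directional but the strand setting of the counting is not given. Pln shares 1644 exon bases with Gm47644 on the opposite strand, which was at 4.30 to 11.1 CPM, and 141 with Cep85l, at 12.1 to 21.3 CPM. Asph shares 2302 exon bases with Clvs1 on the opposite strand, at 1.04 to 2.75 CPM. Slc8a1 shares 296 exon bases with the antisense gene AC122399.1, Casq1 shares 156 with the antisense gene Gm17224 and Atp2a2 shares 83 with Gm43361, and the table has no row for these neighbours. All neighbours with a row were far under the levels of Pln and Asph.

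Markers of the other cells that the OFT can hold were read in the same libraries. Of 13 skeletal muscle markers 5 had a row, and all 5 were lower in the mean (median log2 fold change -0.40). At an unadjusted p under 0.05, 1 was lower, against 6.62% of all genes. Their sum was 361.6 to 444.6 CPM in control-labelled and 277.7 to 411.2 CPM in mutant-labelled libraries. Most of that sum was Acta1, at 313.0 to 396.7 CPM in controls. The defining factors Myod1, Myf5, Myog and Pax7 had no row in a table whose genes all reached 1 CPM in at least 4 samples. The sum of 8 smooth muscle markers was 2551 to 2992 CPM in controls and 2468 to 3026 CPM in mutant-labelled libraries. That of 8 cushion mesenchyme markers was 6642 to 7370 CPM and 6261 to 8313 CPM, and that of 8 endocardial and endothelial markers was 880.8 to 1078 CPM and 892.8 to 985.7 CPM. At an unadjusted p under 0.05, smooth muscle had 2 lower and 1 higher. Endocardium and endothelium had 2 lower and 0 higher, and cushion mesenchyme had 0 of either. Over all genes 6.62% were lower and 5.45% higher. Markers of the second heart field and pharyngeal mesoderm, which include progenitors that still add muscle to the OFT, went the other way. Of these 7 markers 5 were measured, and all 5 were higher in the mean. Their sum was 66.1 to 87.0 CPM in controls and 96.6 to 108.0 CPM in mutant-labelled libraries. Isl1 among them was at 29.2 CPM and 46.2 CPM (limma adjusted p = 0.142, edgeR likelihood ratio adjusted p = 0.00142). The 8 erythroid markers, all higher in the mean, spread from 1795 to 3640 CPM in controls and from 1505 to 5554 CPM in mutant-labelled libraries, with overlap. The sums of 6 epicardial (333.8 to 436.2 CPM and 320.1 to 538.9 CPM), 4 neural (35.1 to 39.9 CPM and 29.0 to 44.7 CPM) and 8 macrophage markers (54.4 to 66.3 CPM and 53.5 to 84.6 CPM) overlapped between groups. The part of any of these in the differences of the SR genes was not tested.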

How the data were processed

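RNA of E11.5 OFT was measured in 4 control-labelled and 4 mutant-labelled libraries, grouped by the genotype label. Per the labels and methods, adapters were trimmed with cutadapt, RSEM quantified the reads over GRCm38, and edgeR gave TMM factors. The deposited table holds CPM that the authors scaled by these factors. The methods give a filter of 1 CPM in at least 3 samples, and every listed gene reached 1 CPM in at least 4. TMM sets most genes to no change, so a fold change is relative to the bulk of genes. The table has 14608 genes, 13 without a symbol, and 0 columns were left out. The members, gene lists, tests and alternatives were chosen with earlier results of these data known.

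Fold changes and p-values came from limma 3.58.1 (R 4.3.3) with a trend on log2(CPM + 0.5), two-sided, with Benjamini-Hochberg adjustment over 14608 genes. This pseudocount slightly understates changes of low genes. Single genes and ratios were also tested by exact permutation over 70 relabellings. All values were whole multiples of 1 read (100%, tolerance 1e-06), worth 0.0325 to 0.0948 CPM. On these recovered reads edgeR 4.0.16 called 107 genes by its likelihood ratio test and 0 by its quasi-likelihood test, and DESeq2 1.42.0 called 194, all as alternatives. The fits were tested on simulated data.

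Genes were named by rule: the 10 members, Mib1 and Gata6, 6 sarcomere genes, other calcium genes with an unadjusted p under 0.05 (at most 6 per direction, by p), and the 5 genes nearest to the mean profile. 1 of the other calcium genes is not reported here. Sln, Acta1, Isl1 and genes that share exons with members were named after their values were seen. Other alternatives were pseudocounts of 0.1 and 1 CPM, a mean of at least 5 CPM, other scalings, removal of a GC trend, fold changes relative to the sarcomere list, a replicate block and leaving out each library.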

Additional observations from a re-analysis of the deposited data

Results flagged for a closer look

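The log2 ratio of Pln to Atp2a2 in mutant replicate 2 was -0.83, far from the other 3 mutant-labelled libraries, which lay between -1.59 and -1.53. Its gap to the nearest of them was 0.916 of the whole range of the group, above Dixon's critical value for a group of 4. In that library Atp2a2 was the lowest of all 8 libraries, at 903.3 CPM, and Pln the highest of the mutant-labelled ones, at 508.7 CPM. This was 1 of 28 groups tested for a single outlying sample, and chance alone gives about 1 such result in 20 groups.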

How the results depend on the processing

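The members past an adjusted p of 0.05 (0), the 7 lower at an unadjusted p and their median kept to within 1.5 times under the pseudocounts, the filter, the other scalings, edgeR and DESeq2 with all libraries, and the 2 without overlap under the pseudocounts and the other scalings. Relative to the sarcomere list the 4 values were 2, 0, 0.0398 and 0, with Casq1 at 0.0032, Trdn 0.0561, Asph 0.31, Atp2a2 0.0368, Pln 0.0428, Slc8a1 0.0769, Smdt1 0.0626, Cacna1h 0.0268, Myl7 0.21, Ttn 0.0727 and Gata6 0.25 on the log2 scale, all reversed by construction, since that list was lower. With the GC trend removed, 5 members did not overlap. The share of all genes without overlap was not counted in this setting or with a library left out. With that trend removed, the log2 differences of Pln to Atp2a2 and Slc8a1 to Atp2a2 became -0.11 and -0.0562, and Mib1 became -0.0022. The cause of these changes was not tested. With columns scaled to the same sum, Asph was at 0.0048. Leaving out 1 library gave 3 (without control replicate 1) to 8 lower members, 2 to 5 without overlap, a median of -0.34 to -0.21, Pln to Atp2a2 of -0.18 to 0.11, and Asph of -0.11 to 0.0427 in limma. The same in edgeR's likelihood ratio test, chosen after seeing the data, gave 0 to 2 calls (2 without mutant replicate 2, 1 without mutant replicate 4), 3 to 8 lower members, a median of -0.35 to -0.21, Asph of 0.0036 and 0.0052 (without mutant and control replicates 4), 0.0236 (without control replicate 1) and up to 0.0494 and Gata6 of up to 0.0044. Of 280 member fold changes under alternatives, 265 kept their direction. These are not independent, since the alternatives share most of their data and the replicate block on the same values leaves each fold change as it was. Replicate numbers did not pair the libraries (same-number correlations -0.185 to 0.0349). With the replicate block 7 members were lower, 0 passed and the median was -0.29, and with the GC trend removed as well 8 were lower and Mib1 was at -0.0022. The shares of all genes lower at an unadjusted p were not counted with the block or with a library left out. With the block, 4 pairs allow no permutation p under 0.125. Depth limits Casq2 most, with 463 reads in its shallowest library.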
